A study of Mus musculus with 12 samples.

Results

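The response of Phf6 knockout (KO) embryonic stem cells to retinoic acid (RA) was set against the response of wild type (WT) cells, as the difference of differences (KO RA minus KO control) minus (WT RA minus WT control). This quantity, called the interaction here, is positive where the KO response was the more positive one. It used 8 of the 12 RNA-seq libraries of the series, 2 in each of 4 groups: KO cells with RA, WT cells with RA, KO control cells and WT control cells. The other 4 libraries were KO and WT cells with doxycycline. They entered the fit, with its filter, scaling and shared spread, and the same gap between the lines was looked at again in them. All groups share the ZHBTc4 line, mouse embryonic stem cells of 129/Ola origin in which both native alleles of Pou5f1 are disrupted and Oct4, its product, comes from a transgene that doxycycline represses. RA cells had all-trans RA (written as 10mM in the protocol text) for 4 days in medium without LIF, the cytokine that keeps these cells undifferentiated. Control cells had neither agent, and doxycycline cells had 2 days of doxycycline. Early passages grew on feeder fibroblasts and later ones on gelatin, and the labels give passage 1 for all 12 libraries. The labels do not say whether the 2 replicates of a group were separate cultures or how many KO clones were used, so the p-values measure the spread between these libraries, which may be technical. RNA of the RA cells of both lines went through an additional extraction kit, which cannot be told apart from RA itself in the response of 1 line but was shared by both lines.

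Phf6 codes for a nuclear protein with PHD-like zinc fingers that binds chromatin. RA enters cells, binds nuclear receptors (Rara, Rarb, Rarg with Rxr partners) and turns on genes such as Cyp26a1, Rarb and the Hox clusters. In embryonic stem cells it ends the pluripotency network of Oct4, Sox2, Nanog and Esrrb, and depending on the culture the cells turn to neural, mesodermal or extraembryonic endoderm fates. A difference in response can come about in several ways. The lines may be alike before treatment and separate after it, or differ before treatment and come together, or change places. The control libraries and the RA libraries were therefore tested separately for the gap between KO and WT (the control gap and the RA gap), and genes were sorted by which gap was called.

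Phf6 (chrX:52912266-52956943, GRCm38) had 5.90 and 5.96 CPM (counts scaled to library size) in KO RA, 40.3 and 40.7 CPM in WT RA, 4.49 and 6.50 CPM in KO control and 42.8 and 40.2 CPM in WT control libraries. The KO libraries were lower in both conditions, without overlap, and the interaction was not called (log2 0.14 ± 0.18, SE, adjusted p = 0.674). Pou5f1 had 976 and 989 CPM in KO RA and 973 and 1081 CPM in WT RA libraries, against 1196 and 1193 CPM in KO control and 1031 and 1013 CPM in WT control libraries. Its interaction was not called either (log2 -0.29 ± 0.12, adjusted p = 0.141). Total counts were 15799517 to 21441996 per library, and replicates of the 4 groups differed by more than sampling noise. Summed over 8 markers each, embryonic stem cell genes had 1720 to 1750 CPM in KO RA, 2590 to 2790 in WT RA, 7850 to 7890 in KO control and 7090 to 7230 in WT control libraries. Primitive endoderm genes had 4310 to 4450, 2270 to 2380, 158 to 164 and 102 to 110 CPM in the same order. Feeder fibroblast genes stayed low, with 65.1 to 68.0 CPM in KO RA, 72.1 to 73.6 in WT RA, 45.3 to 47.7 in KO control and 30.4 to 34.0 in WT control libraries. Neural genes had 89.6 to 90.1, 86.1 to 86.7, 409 to 412 and 423 to 431 CPM, and trophectoderm genes 265 to 283, 266 to 290, 67.2 to 73.1 and 105 CPM, again in that order. Pou5f1 is 1 of the 8 embryonic stem cell markers. Its 976 and 989 CPM in KO RA and 973 and 1081 CPM in WT RA libraries are thus a large part of those sums. Oct4 comes from a transgene in this line, so the level of Pou5f1 need not follow the state of the cells. No marker of these lists was at 0 in all 8 libraries, and the part of cell type makeup in the results below was not tested. In bulk RNA, fewer cells of a type and less RNA per cell cannot be told apart.

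The 2 lines differed in their response at 3157 of 17884 genes tested, or 17.7% (edgeR quasi-likelihood test, Benjamini-Hochberg adjusted p under 0.05). The KO response was the more positive at 1308 genes (7.31%) and the more negative at 1849 (10.3%), and the median size of the called interactions was 0.54 on the log2 scale. At least 2-fold interactions were called at 713 genes (3.99%), 291 of them positive and 422 negative. DESeq2 called 1936 genes and a fit with the deposited effective lengths 1761, and positive interactions were 41.4% of the calls, against 49.6% by DESeq2 and 44.5% with effective lengths. RA itself moved most genes in each line: its response was called at 75.5% of genes in KO and 73.9% in WT cells. Where both responses were called with the same sign, the KO response was the larger at 6778 of 11468 genes (59.1%), and this share was 64.6% among genes that fell and 54.6% among genes that rose. Among genes with the interaction called, 867 fell in both lines and fell further in KO, against 173 that fell less in KO. Another 680 rose in both lines and rose further in KO, against 393 that rose less. Opposite responses were rarer, with 106 genes that fell in KO and rose in WT and 84 that rose in KO and fell in WT. The contrast between falling and rising genes can shift with the scaling. An offset shared by all genes makes falls larger and rises smaller, or the reverse. The median interaction over all genes was -0.03, and DESeq2 size factors in the same test moved it by 0.029 and gave 48.4% positive calls. The split into falling and rising genes was not tested with that scaling.

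Sorted by their gaps, 1248 called genes (6.98% of those tested) had a gap that arose with RA: the RA gap was called and the control gap was not. Closing genes, with the control gap called and the RA gap not, numbered 873 (4.88%). The gap was called in both conditions with the same sign at 249 widening genes (1.39%) and 220 narrowing genes (1.23%), and with opposite signs at 472 switching genes (2.64%). For 95 genes (0.531%) neither gap was called. These numbers depend on the settings: effective lengths gave 750 arising and 514 closing genes, DESeq2 804 and 537, and a control gap defined as 0.5 or more in size left 453 closing and 78 widening genes. A control gap that was not called is not shown to be absent. For 950 of the 1248 arising genes the 95% interval of the control gap lay within 0.5 on the log2 scale either way, and for 298 it did not. In the same way, the RA gap of a closing gene was not called and is not shown to be absent. Its median size over the 873 closing genes was 0.1, and its intervals were not counted. Read from the control cells, 5369 genes (30.0%) had a gap before RA. Of these, 41.9% kept it, with both gaps called, the same sign and no interaction called, and 16.3% closed, 8.79% switched, 4.64% widened and 4.10% narrowed. The other 24.4% had neither the RA gap nor the interaction called, so their fate is not settled by these libraries. Read from the RA cells, 6936 genes (38.8%) had a gap, of which 18.0% arose, 32.4% were kept and 36.0% had neither the interaction nor the control gap called. Negative interactions outnumbered positive ones in the arising class (743 against 505), the closing class (498 against 375) and the widening class (176 against 73). They did so in the switching class (275 against 197) and not in the narrowing class (103 against 117). The excess depended on the scaling: with DESeq2 size factors in the same test 48.4% of calls were positive, against 41.4% in the main fit.

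**Figure D1:**
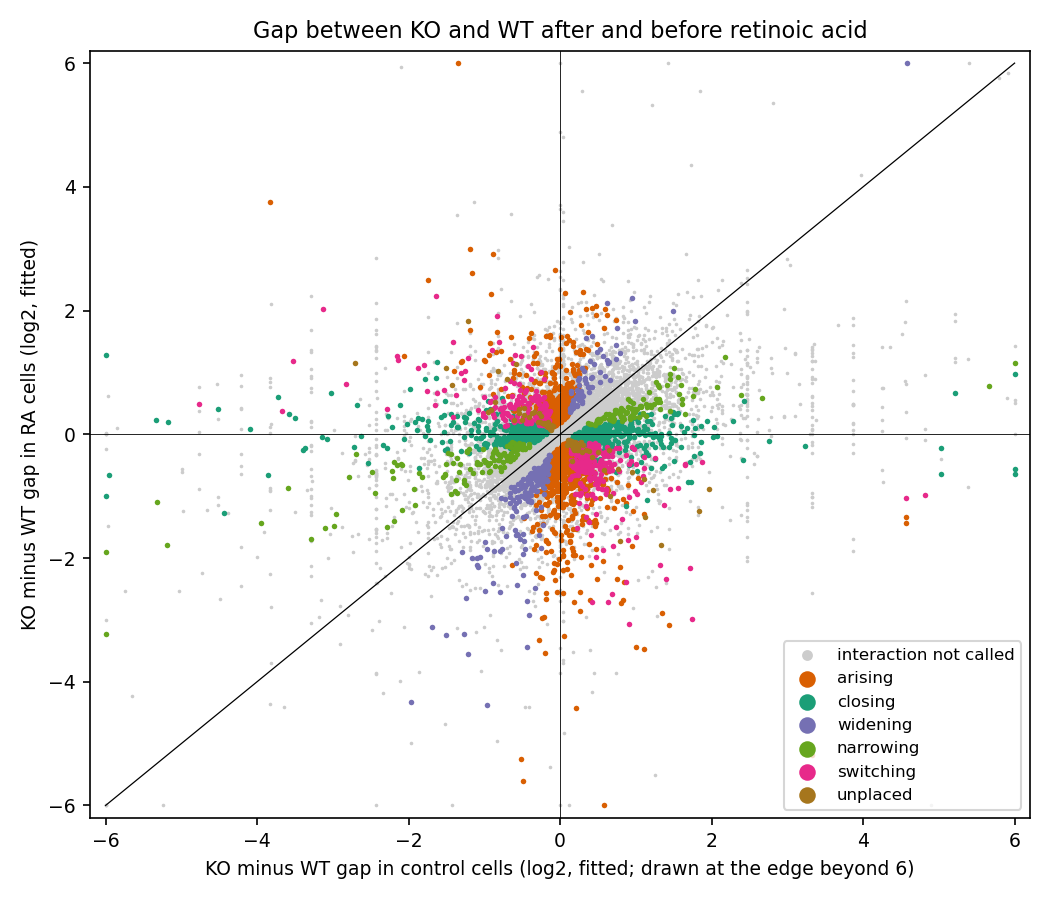
Fitted log2 difference between KO and WT in RA libraries (vertical axis) against the same difference in control libraries (horizontal axis), 1 point per gene tested, coloured by class. The 1248 arising genes lie along the vertical axis, the 873 closing genes along the horizontal axis and the 472 switching genes at the upper left and the lower right. The diagonal marks equal gaps.

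**Figure D2:**
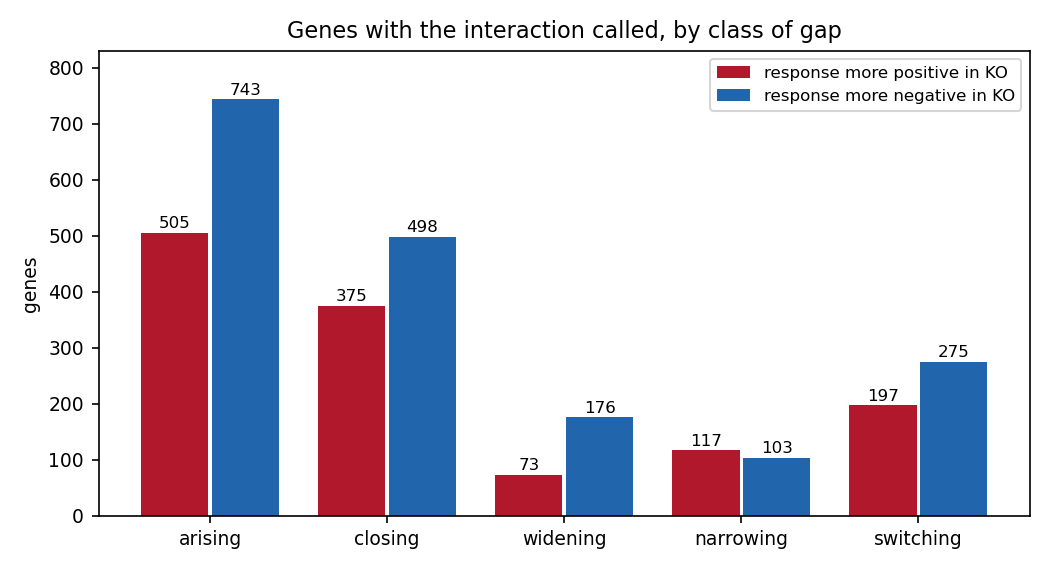
Number of genes with the interaction called (vertical axis) in each class of gap (horizontal axis), by sign of the interaction. Arising genes were the most numerous, with 505 positive and 743 negative interactions.

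The doxycycline libraries were part of the fit but entered none of the class rules. They showed which gaps also stood between the lines in another condition. The KO to WT gap under doxycycline was called at 37.0% of all genes tested. It was called at 68.3% of kept, 76.3% of widening and 81.4% of narrowing genes, and had the sign of the control gap in 92.7%, 94.2% and 95% of those calls, against 72.2% of calls over all genes. Of the closing genes 51.3% had a doxycycline gap, with the sign of the control gap in 74.6% of calls. Of the arising genes 48.5% had one, with the sign of the RA gap in 77.0% of calls, close to the 74.5% of calls over all genes. Of the switching genes 57.0% had one, and 53.9% of those calls had the sign of the control gap and 46.1% that of the RA gap.

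Pluripotency genes fell further in KO cells. Of 32 tested, 23 had a negative interaction and none a positive one, beside 10.3% and 7.31% of all genes, and the list's median interaction was -0.79 against -0.03 over all genes. RA lowered 31 of the 32 in KO (34.6% of all genes) and 30 in WT cells (32.9%), and the fall was the larger in KO at 28 of the 29 genes called in both lines with the same sign. The 23 genes were divided by their gaps: 7 arose with RA, 8 switched, 6 widened, 1 closed and 1 had neither gap called. The control gap alone was called higher in KO at 13 of the 32 (15.2% of all genes) and lower at 8 (14.9%), whereas the RA gap was higher at 3 (18.8% of all genes) and lower at 23 (20.0%).

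Esrrb, an orphan nuclear receptor that holds the naive state, arose with RA (chr12:86361117-86521628). It had 30.2 and 35.7 CPM in KO RA and 155 and 144 CPM in WT RA libraries, against 1049 and 1065 CPM in KO control and 1109 and 1116 CPM in WT control libraries. The control libraries of the lines differed by log2 -0.07 (adjusted p = 0.328) and the RA libraries by -2.19, which gave an interaction of -2.11 ± 0.08 (adjusted p = 6.79e-17). Zfp42 (Rex1), a zinc finger marker of naive cells, had 95.4 and 90.0 CPM in KO RA, 290 and 285 in WT RA, 1490 and 1478 in KO control and 1374 and 1368 in WT control libraries. KO was the lower line with RA and slightly the higher one without it (control gap 0.11, adjusted p = 0.0588), and the interaction was -1.75 ± 0.07 (adjusted p = 4.29e-17). Nr0b1 (Dax1), an Oct4 partner, had 7.82 and 8.58 CPM in KO RA and 25.9 and 24.6 in WT RA libraries, against 235 to 243 CPM in all 4 control libraries (interaction -1.64 ± 0.10, adjusted p = 4.18e-13). Prdm14, which keeps the naive state by restraining DNA methylation and FGF signalling, was nearly lost in KO, with 0.515 and 0.784 CPM in KO RA, 7.75 and 7.28 in WT RA, 18.8 and 20.5 in KO control and 22.5 and 22.5 in WT control libraries. Its interaction was -3.34 ± 0.24 (adjusted p = 3.52e-11). Fgf4, the FGF that embryonic stem cells secrete, had 9.83 and 9.57 CPM in KO RA, 30.9 and 33.5 in WT RA, 231 and 246 in KO control and 218 in both WT control libraries (interaction -1.85 ± 0.10, adjusted p = 1.17e-13).

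Nanog, the homeodomain factor of the naive network, widened (chr6:122707489-122714633). It had 73.2 and 77.0 CPM in KO RA and 431 and 413 in WT RA libraries, against 739 and 770 in KO control and 964 and 930 in WT control libraries. KO was lower in both conditions, by log2 -2.49 with RA and -0.33 without it (interaction -2.16 ± 0.07, adjusted p = 1.32e-18). Klf2 (interaction -1.60), Tfcp2l1 (-1.45) and Nr5a2 (-1.75), further transcription factors of the naive state, widened as well. Klf4, a reprogramming factor, changed places: 47.0 and 51.2 CPM in KO RA and 124 and 130 in WT RA libraries, against 503 and 495 in KO control and 280 and 287 in WT control libraries. The interaction was -2.19 ± 0.08 (adjusted p = 4.97e-18), with a control gap of 0.82 and an RA gap of -1.38. Tet2, an enzyme that oxidises 5-methylcytosine, switched likewise (control gap 0.61, RA gap -0.88, interaction -1.49 ± 0.09, adjusted p = 6.24e-10). Sox2, the partner of Oct4 that neural cells also use, switched with the smaller interaction of -0.63 ± 0.07 (adjusted p = 3.34e-07): it had 93.2 and 99.8 CPM in KO RA, 113 and 117 in WT RA, 495 and 505 in KO control and 381 and 389 in WT control libraries.

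The start regions of Nanog and Zfp42 are shown because both genes are known targets of Oct4 and Sox2 and lost more of their RNA in KO cells. The windows run from 250 bases before to 50 bases after the annotated start (RefSeq, GRCm38.p6), written on the strand of the gene, and capitals mark the match, which is in the reverse orientation in both. The motifs searched on both strands were the joined Oct4 and Sox2 motif CATTGTNATGCAAA and the octamer ATGCAAAT, which share the letters ATGCAAA. Of 32 pluripotency genes 21 matched the table, with 26 windows. The joined motif was in 2 of 32851 windows (0.00609%), both of Nanog, and the octamer in 1.74% of all windows and in 1 of the 26. A match is not evidence of binding in these cells.
Nanog, chr6:122707239-122707538, + strand, joined motif 75 to 62 bases before the start: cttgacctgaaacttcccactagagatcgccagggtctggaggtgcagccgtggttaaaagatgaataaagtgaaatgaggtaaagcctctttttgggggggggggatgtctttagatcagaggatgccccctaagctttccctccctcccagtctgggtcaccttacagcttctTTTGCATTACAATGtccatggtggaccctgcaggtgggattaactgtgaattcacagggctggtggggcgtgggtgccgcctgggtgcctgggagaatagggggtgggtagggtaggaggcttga
Zfp42, chr8:43306960-43307259, - strand, octamer 186 to 179 bases before the start: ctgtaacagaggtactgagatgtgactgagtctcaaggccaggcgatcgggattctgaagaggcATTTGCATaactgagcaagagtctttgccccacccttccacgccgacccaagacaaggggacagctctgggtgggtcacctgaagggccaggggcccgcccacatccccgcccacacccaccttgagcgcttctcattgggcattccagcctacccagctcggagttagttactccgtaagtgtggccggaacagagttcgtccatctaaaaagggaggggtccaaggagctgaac

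**Figure D3:**
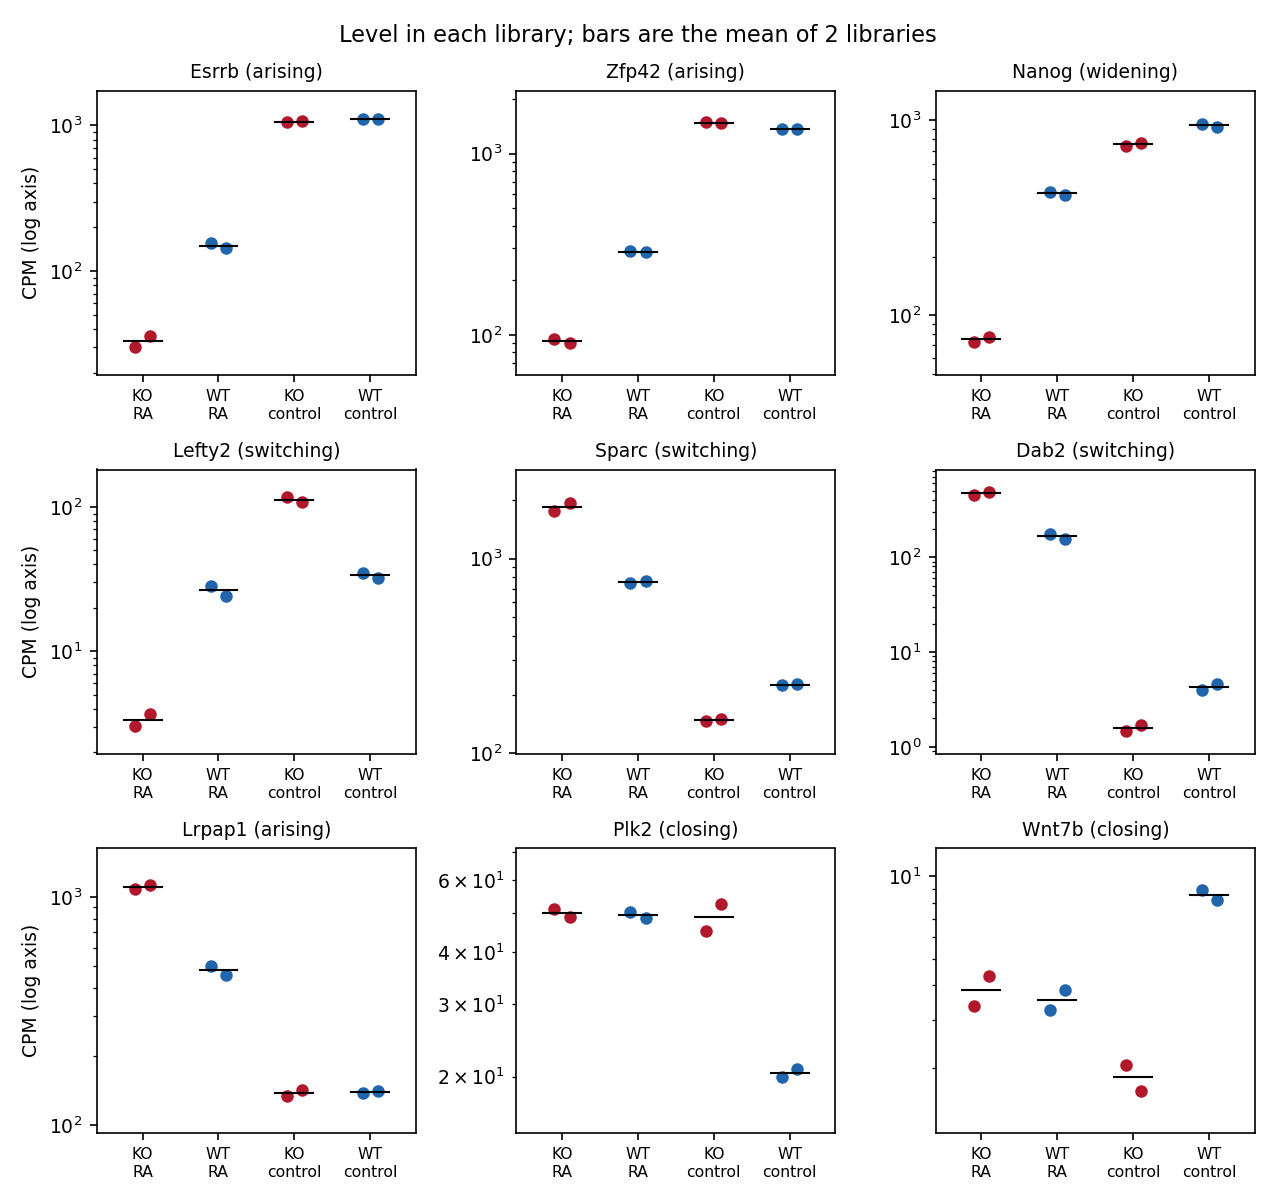
CPM of 9 genes in each library (log axis; points are libraries, KO red and WT blue, bars the mean of 2 libraries) in KO RA, WT RA, KO control and WT control cells. Esrrb and Zfp42 lie close together in the control libraries and apart in the RA libraries, Plk2 and Wnt7b the other way round, and Lefty2, Sparc and Dab2 change order.

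Nodal pathway genes changed places between the lines. Nodal is a TGF-beta ligand, Tdgf1 (Cripto) its co-receptor, and Lefty1 and Lefty2 are secreted Nodal inhibitors that Nodal signalling itself turns on. Lefty2 had 3.04 and 3.66 CPM in KO RA and 28.6 and 24.3 in WT RA libraries, against 117 and 108 in KO control and 35.0 and 32.2 in WT control libraries. It was the higher in KO without RA and the lower in KO with RA, without overlap in either, and its interaction was -4.72 ± 0.15 (adjusted p = 9.08e-19). Nodal had 14.7 and 14.3 CPM in KO RA, 40.9 and 36.1 in WT RA, 72.6 and 74.7 in KO control and 59.5 and 53.5 in WT control libraries (interaction -1.79 ± 0.11, adjusted p = 9.79e-13). Lefty1 (interaction -3.26 ± 0.18, adjusted p = 1.17e-13) and Tdgf1 (-3.34 ± 0.29, adjusted p = 0.00028) switched too, with control gaps of 0.88 and 0.63 and RA gaps of -2.38 and -2.71. Inhbb, a subunit of activin, which uses the same receptors, widened: 1.64 and 2.46 CPM in KO RA, 23.3 and 20.4 in WT RA, 165 and 159 in KO control and 226 and 214 in WT control libraries. Fst, the secreted inhibitor of activin, was a closing gene instead, with 3.65 and 4.45 CPM in KO RA, 4.14 and 3.19 in WT RA, 20.9 and 19.9 in KO control and 5.00 and 6.29 in WT control libraries (interaction -1.72 ± 0.24, adjusted p = 4.04e-06). The RA libraries of the lines overlapped and the control libraries did not.

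The BMP targets Id2 and Id3, inhibitors of helix-loop-helix factors, moved the other way. Id2 had 143 and 151 CPM in KO RA, 51.1 and 48.2 in WT RA, 14.5 and 13.7 in KO control and 11.1 and 11.2 in WT control libraries (interaction 1.22 ± 0.12, adjusted p = 1.64e-08). Id3 was level in the control libraries, at 48.6 to 50.9 CPM, and had 88.6 and 94.7 CPM in KO RA against 58.9 and 51.5 in WT RA libraries (0.71 ± 0.10, adjusted p = 1.64e-05). Over the TGF-beta and BMP list, 6 of 27 tested had a positive and 9 a negative interaction (7.31% and 10.3% of all genes). The median of the list was -0.42.

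The FGF list had 12 negative and 5 positive interactions of 23 tested (10.3% and 7.31% of all genes) and a median of -0.39. Targets of ERK signalling were among both. Spry4 and Spry2 (Sprouty inhibitors), Etv4 and Etv5 (transcription factors that FGF turns on) and Dusp6 (an ERK phosphatase) are common readouts of ERK activity, as are the immediate-early genes Egr1 and Ier3. Spry4 had 4.68 and 4.18 CPM in KO RA, 13.4 and 14.2 in WT RA, 386 and 404 in KO control and 304 and 293 in WT control libraries (interaction -2.04 ± 0.11, adjusted p = 1.21e-13). It was the higher in KO before RA and the lower after it. Spry2 (interaction -1.20) and Etv5 (-1.06) arose with RA, from control gaps of 0.07 and 0.04. Etv4 (-1.39) widened. Spry4, Spry2, Etv5 and Etv4 fell in both lines and fell further in KO. Dusp6 switched (-1.0), with a response of -0.88 in KO and 0.12 in WT cells, and Spry1 closed (-0.64), with a rise of 0.39 in KO and 1.02 in WT cells. The call of Spry1 was lost without WT control replicate 1, KO control replicate 1 or KO RA replicate 2 (adjusted p 0.0582 to 0.122), by DESeq2 (adjusted p = 0.0984) and with effective lengths (adjusted p = 0.0924). Egr1 and Ier3 had positive interactions: Egr1 fell less in KO (response -1.64 in KO and -2.5 in WT cells, interaction 0.86) and Ier3 rose further in KO (2.36 in KO and 1.18 in WT cells, interaction 1.18). The receptor genes Fgfr3 and Fgfr2 (interaction 0.46) and the ligand gene Fgf10 rose further in KO. Fgfr3 was alike in the control libraries, at 6.09 and 5.83 CPM in KO and 6.59 and 5.23 CPM in WT, and had 34.9 and 36.3 CPM in KO RA against 11.2 and 12.9 in WT RA libraries (interaction 1.56 ± 0.21, adjusted p = 2.80e-06). Fgf10, a ligand of Fgfr2, had 19.7 and 21.6 CPM in KO RA, 8.72 and 8.43 in WT RA, 2.5 and 2.92 in KO control and 2.88 and 4.05 in WT control libraries (1.61 ± 0.30, adjusted p = 0.000365).

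Of 29 Wnt genes tested, 9 had a negative and 4 a positive interaction (10.3% and 7.31% of all genes), with a median of -0.45, and the ligands did not move as 1 group. Wnt6, Wnt8a and Wnt3 and the target Axin2 had negative interactions. Wnt5a, Wnt4 and Wnt5b rose in both lines, with responses of 2.64, 2.08 and 2.63 in KO and 1.49, 1.71 and 2.28 in WT cells, and their interactions of 1.15, 0.37 and 0.36 were not called. Wnt6, a ligand made by extraembryonic endoderm, had 1.17 and 0.784 CPM in KO RA and 5.90 and 5.88 in WT RA libraries, against 0.912 to 1.37 CPM in the 4 control libraries (interaction -2.38 ± 0.42, adjusted p = 0.000133). Axin2, the negative feedback gene of the pathway, had 13.6 and 13.1 CPM in KO RA, 29.8 and 24.1 in WT RA, 5.83 and 5.77 in KO control and 5.59 and 5.85 in WT control libraries (-1.04 ± 0.19, adjusted p = 0.000148). Wnt8a and Wnt3 had interactions of -3.54 and -1.99 from control levels under 0.5 CPM. The call of Wnt8a was lost without KO control replicate 2 (adjusted p = 0.149), and that of Wnt3 was lost when any of 7 of the 8 libraries was left out (adjusted p 0.0533 to 0.534). Wnt7b, in contrast, closed: it had 3.37 and 4.34 CPM in KO RA, 3.26 and 3.84 in WT RA, 2.05 and 1.64 in KO control and 8.94 and 8.22 in WT control libraries (interaction 2.33 ± 0.26, adjusted p = 1.51e-07).

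Among genes of visceral endoderm function the called interactions were all positive. This extraembryonic tissue takes up nutrients through the receptors Lrp2 and Cubn with the adaptor Dab2 and the partner Amn. Of 23 such genes tested, 11 had a positive interaction and none a negative one (7.31% and 10.3% of all genes), with a median of 1.18, and the RA gap was higher in KO at 21 and lower at 1 (18.8% and 20.0%). Of the 11, 6 arose and 5 switched. Dab2 had 458 and 483 CPM in KO RA and 176 and 157 in WT RA libraries, against 1.47 and 1.70 in KO control and 3.94 and 4.61 in WT control libraries (interaction 2.92 ± 0.22, adjusted p = 4.89e-11). Lrp2 had 380 and 365 CPM in KO RA, 140 in both WT RA, 33.6 and 33.5 in KO control and 42.4 and 43.8 in WT control libraries (1.77 ± 0.08, adjusted p = 1.94e-15). Both were the lower in KO before RA and the higher after it. Lrpap1, the chaperone of Lrp2 and not a member of this list, arose with RA: 1088 and 1127 CPM in KO RA, 499 and 455 in WT RA, 134 and 143 in KO control and 138 and 142 in WT control libraries (1.23 ± 0.08, adjusted p = 1.34e-12). Cubn had 1455 and 1434 CPM in KO RA and 358 and 352 in WT RA libraries, from under 1 CPM in every control library. Its RA gap of 2.02 (adjusted p = 7.34e-22) rests on deep counts, whereas its interaction of 1.68 ± 0.42 (adjusted p = 0.00695) rests on a few reads in the control cells and was lost without WT control replicate 1 or 2 or KO control replicate 1 (adjusted p 0.0529 to 0.109). Amn (interaction 1.59) lost its call without WT control replicate 2 (adjusted p = 0.0693). Cst3, a secreted protease inhibitor, had 349 and 355 CPM in KO RA, 179 in both WT RA, 55.5 and 50.7 in KO control and 55.8 and 56.1 in WT control libraries (1.05 ± 0.09, adjusted p = 7.21e-10). Rbp4, the carrier of retinol in plasma, had 8.42 and 7.43 CPM in KO RA, 3.92 and 3.24 in WT RA, 4.23 and 3.46 in KO control and 3.59 and 4.30 in WT control libraries (1.18 ± 0.27, adjusted p = 0.00212). Afp, Ttr, Apoe and Apob, carriers that visceral endoderm secretes, were among the 12 members without a called interaction.

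Called interactions of basement membrane genes were positive with 1 exception. Parietal and visceral endoderm lay down laminin, collagen IV and perlecan. Of 25 such genes, 13 had a positive interaction and 1 a negative one (7.31% and 10.3% of all genes), with a median of 0.31. The negative one was Col4a5 (-1.12), whose call was lost without WT control replicate 2 (adjusted p = 0.0752) and with effective lengths (adjusted p = 0.0758). Sparc, a matrix glycoprotein abundant in parietal endoderm (chr11:55394500-55423183), had 1746 and 1938 CPM in KO RA and 752 and 762 in WT RA libraries, against 147 and 149 in KO control and 223 and 226 in WT control libraries. KO was the lower line before RA (control gap -0.60) and the higher after it (RA gap 1.28), with an interaction of 1.88 ± 0.07 (adjusted p = 5.81e-17). The laminin chains Lamb1 (interaction 1.27, control gap -0.38, RA gap 0.89) and Lamc1 (1.20, -0.79, 0.40) and the collagen chaperone Serpinh1 (1.10, -0.21, 0.89) switched in the same direction. Col4a2 widened, with 1810 and 1996 CPM in KO RA, 1056 and 978 in WT RA, 24.3 and 24.0 in KO control and 17.5 and 21.2 in WT control libraries (0.58 ± 0.11, adjusted p = 0.000746).

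Of 19 regulators of endoderm, transcription factors with some ligands and receptors, 2 had a called interaction, both positive (10.5%, beside 17.7% of all genes). Gata4 had 75.2 and 77.7 CPM in KO RA, 41.7 and 40.0 in WT RA, 0.961 and 1.03 in KO control and 1.47 and 1.62 in WT control libraries (interaction 1.53 ± 0.28, adjusted p = 0.000219). The other was the receptor gene Fgfr2 (0.46 ± 0.13, adjusted p = 0.0159), whose call was lost without WT control replicate 2 or KO control replicate 1 (adjusted p = 0.087 and 0.202). Gata6 had 95.2 and 101 CPM in KO RA and 58.0 and 54.9 in WT RA libraries, so its RA gap was called (0.80, adjusted p = 5.27e-10). With 0.294 to 0.809 CPM in the control libraries its interaction was 0.67 ± 0.47 (adjusted p = 0.377). For such genes the gap in RA cells is measured well, and the libraries cannot say whether it was there before. Sox17 had 44.1 and 51.2 CPM in KO RA against 42.7 and 36.9 in WT RA libraries, and its interaction was 0.00 (adjusted p = 1). Of the 19 genes, 13 had an RA gap higher in KO (18.8% of all genes) and 1 lower (20.0%).

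**Figure D4:**
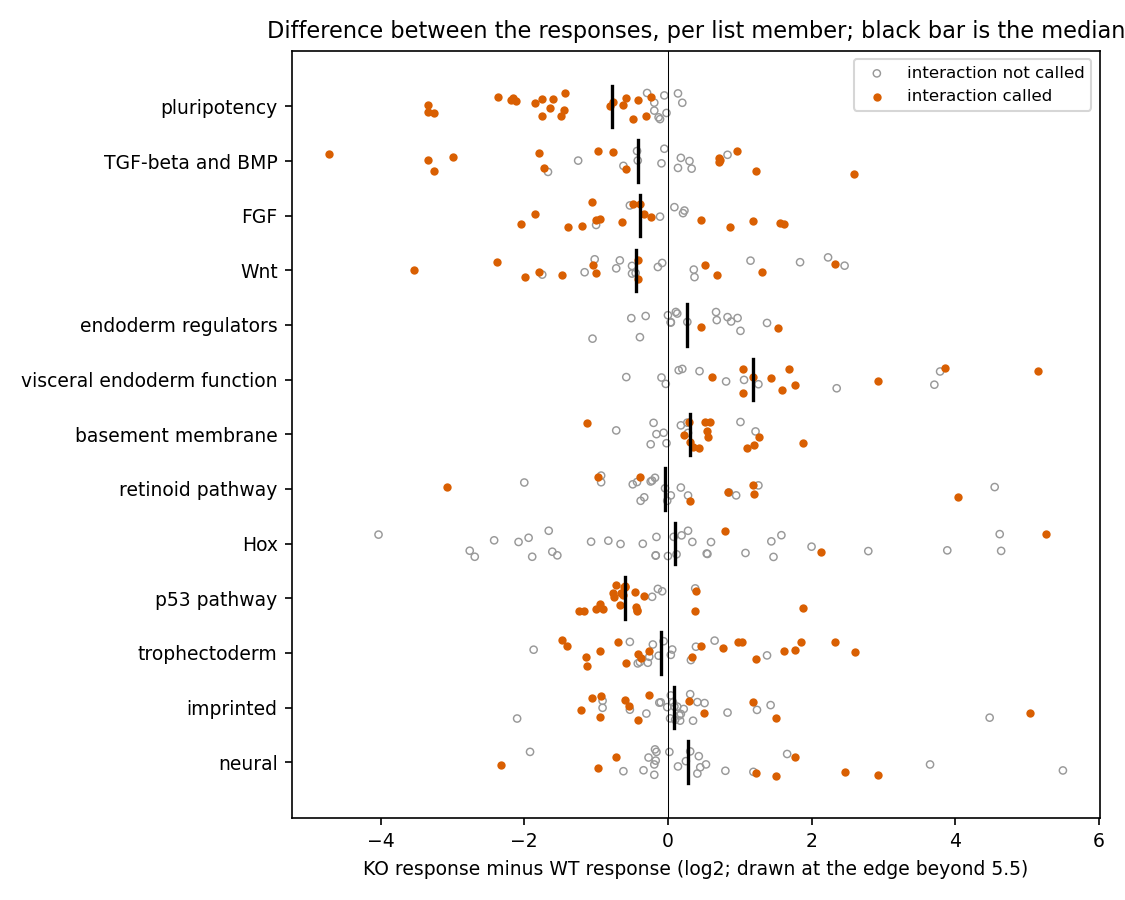
Interaction (KO response minus WT response, log2, horizontal axis) of each tested member of 13 gene lists (vertical axis); filled points were called, open ones not, and the black bar is the median of the list. Pluripotency and p53 pathway genes lie mostly left of 0 (medians -0.79 and -0.60) and visceral endoderm genes right of it (median 1.18).

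Direct targets of RA rose in both lines. Cyp26a1, the enzyme that degrades RA and the most direct RA target, had 183 and 204 CPM in KO RA and 132 and 117 in WT RA libraries, against 0.128 and 0.425 in KO control and 0.0588 and 0.124 in WT control libraries. It rose in both lines and was the higher in KO with RA (RA gap 0.63, adjusted p = 6.01e-09), while its interaction was -0.93 ± 0.87 (adjusted p = 0.532, 95% interval -2.72 to 0.86). Rarb, an RA receptor gene that RA induces, had 38.8 and 39.3 CPM in KO RA and 27.6 and 23.3 in WT RA libraries, from under 1 CPM in all control libraries (interaction 0.28 ± 0.56, adjusted p = 0.800). Crabp2, which carries RA to the nucleus, was a kept gene: 162 and 146 CPM in KO RA, 69.4 and 71.6 in WT RA, 5.45 and 7.17 in KO control and 2.88 and 3.67 in WT control libraries (control gap 0.95, RA gap 1.13). Dhrs3, a retinal reductase, was the lower in KO with RA (31.4 and 33.1 CPM, against 60.3 and 50.7 in WT RA libraries), with an interaction of -0.38 ± 0.27 (adjusted p = 0.379). Of 27 retinoid genes tested, 5 had a positive and 3 a negative interaction (7.31% and 10.3% of all genes). Cdx1, a caudal homeobox gene that RA induces, had the largest negative one of the list, with 10.3 and 12.1 CPM in KO RA and 73.1 and 69.6 in WT RA libraries, against 1.47 and 2.25 in KO control and 1.00 and 1.87 in WT control libraries (-3.07 ± 0.37, adjusted p = 3.79e-06). Meis2, a Hox cofactor, had 121 and 122 CPM in KO RA and 98.3 and 90.1 in WT RA libraries, against 0.577 and 0.243 in KO control and 4.65 and 5.85 in WT control libraries. Its interaction of 4.04 ± 0.29 (adjusted p = 2.28e-11) thus came almost wholly from the control cells, where the gap was -3.67, and the RA gap was 0.37. Crabp1, which holds RA in the cytoplasm, widened (0.84 ± 0.11, adjusted p = 1.05e-06), and Tgm2, an RA-induced transglutaminase in other cells, arose as the lower in KO (-0.98 ± 0.14, adjusted p = 0.000225).
The start region of Cyp26a1 is shown because it is a known direct RA target whose interaction was not called. Capitals mark the direct repeat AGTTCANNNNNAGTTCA, of the kind that RA receptors bind, here on the other strand and in 0.0244% of windows.
Cyp26a1, chr19:37697558-37697857, + strand, repeat 32 to 16 bases before the start: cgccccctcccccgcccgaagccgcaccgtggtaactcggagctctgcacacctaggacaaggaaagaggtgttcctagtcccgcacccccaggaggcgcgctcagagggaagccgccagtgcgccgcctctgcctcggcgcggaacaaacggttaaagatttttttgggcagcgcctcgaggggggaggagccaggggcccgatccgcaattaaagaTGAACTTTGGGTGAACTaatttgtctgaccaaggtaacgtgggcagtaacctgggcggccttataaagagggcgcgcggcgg

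Hox genes rose in both lines, 35 of 38 in KO (40.9% of all genes) and 36 in WT (41.0%). An interaction was called at 3 of the 38 (7.89%, beside 17.7% of all genes), all positive. Hoxb9 had 74.1 and 72.4 CPM in KO RA, 32.9 and 31.7 in WT RA, 7.11 and 6.20 in KO control and 4.76 and 5.36 in WT control libraries (0.79 ± 0.16, adjusted p = 0.000741). Many Hox genes were near 0 in the control cells, which leaves their interaction wide. Hoxb1 had no read in any control library. Hoxa5 and Hoxc4 had the other called interactions. Hoxa5 had no read in the KO control libraries and 0.176 and 0.187 CPM, or 3 counts each, in WT control libraries. These values are no higher than the floor of 3 counts, so no fold is given. Its call (adjusted p = 0.0140) was lost without WT control replicate 2 or either KO control library.

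Most genes of the p53 pathway list, which holds p53 targets and Cdkn2a, were higher in KO control cells, and at 16 of the 26 genes the control gap closed or changed sign with RA. p53 turns on cell cycle brakes (Cdkn1a, Ccng1, Plk2), death genes (Bbc3, Perp) and its own inhibitor Mdm2. In RA cells 3 of the 26 genes were higher in KO and 11 lower (18.8% and 20.0% of all genes), and in control cells 19 were higher and 2 lower (15.2% and 14.9%). The interaction was negative at 19 and positive at 3 (10.3% and 7.31% of all genes), with a median of -0.60. The 3 were Cdkn2a, Plk3 at 0.38 and Gadd45a at 0.39. Of the called genes, 8 closed, 8 switched, 4 narrowed and 2 arose. The call of Plk3 was lost without WT control replicate 2, WT RA replicate 1 or KO RA replicate 1 (adjusted p 0.0646 to 0.0847) and with effective lengths (adjusted p = 0.0548). Plk2, a kinase, had 51.1 and 48.7 CPM in KO RA, 50.3 and 48.5 in WT RA, 45.0 and 52.4 in KO control and 19.9 and 20.9 in WT control libraries (interaction -1.24 ± 0.11, adjusted p = 7.21e-10). Ccng1, a cyclin that acts with p53, had 261 and 257 CPM in KO RA, 269 and 254 in WT RA, 208 and 225 in KO control and 132 and 134 in WT control libraries (-0.72 ± 0.07, adjusted p = 2.79e-08). For both, the WT control libraries stood alone below the other 6. Trp53inp1, which acts with p53 in cell death, had 239 and 218 CPM in KO RA, 261 and 235 in WT RA, 242 and 268 in KO control and 143 and 133 in WT control libraries (-1.0 ± 0.09, adjusted p = 4.08e-08). Bbc3 (Puma) narrowed, with a control gap of 1.07 and an RA gap of 0.46. Phlda3, Perp, Aen and Sesn1 switched, with interactions of -1.17, -0.90, -0.63 and -0.75. Cdkn1a (p21) had 55.1 and 57.1 CPM in KO RA, 59.1 and 61.1 in WT RA, 27.0 and 33.4 in KO control and 23.2 and 24.7 in WT control libraries. Its interaction of -0.44 ± 0.12 (adjusted p = 0.0157) lost its call when WT control replicate 1, KO control replicate 2, WT RA replicate 2 or KO RA replicate 1 was left out (adjusted p 0.0586 to 0.175). In the doxycycline libraries 15 of the 26 genes were higher in KO (17.9% of all genes) and 1 lower (19.1%). Cdkn2a, which codes for p16 and for p19 Arf, the protein that frees p53 from Mdm2, went the other way in the control cells: 18.6 and 20.5 CPM in KO RA, 30.4 and 29.2 in WT RA, 3.65 and 2.80 in KO control and 17.9 and 18.2 in WT control libraries (1.88 ± 0.21, adjusted p = 9.01e-07).

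Closing genes were also found in the trophectoderm and contractile lists. Tfap2a, a trophoblast and neural crest factor, had 12 and 10.9 CPM in KO RA, 11.6 and 11.8 in WT RA, 0.192 and 0.425 in KO control and 1.59 and 2.37 in WT control libraries (interaction 2.60 ± 0.41, adjusted p = 2.84e-05). The RA libraries of the lines overlapped. Pknox2, a homeodomain factor, had 18.2 and 19.9 CPM in KO RA, 19.9 and 20.4 in WT RA, 6.09 and 7.29 in KO control and 28.0 in both WT control libraries (1.98 ± 0.14, adjusted p = 1.80e-11). Cyr61 and Ctgf, matricellular targets of the Hippo effector Yap, were lower in KO control than in WT control cells (control gaps -1.10 and -0.87) and had RA gaps of -0.06 and 0.08 (interactions 1.05 and 0.96). Over the trophectoderm list, 11 of 36 had a positive and 10 a negative interaction (7.31% and 10.3% of all genes), and 18 were lower in KO already without RA, against 5 higher (14.9% and 15.2%). Among the keratins, Krt8 (interaction 0.76) and Krt18 (0.97) switched upward in KO, and Krt19 was not called (0.04). Krt7 (-1.47) was an arising gene, lower in KO with RA (RA gap -2.11). Its control gap of -0.64 had the same sign and was not called. The call of Krt7 was lost with effective lengths (adjusted p = 0.108). Tfap2c (-0.70) widened downward.

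Imprinted genes are those of which 1 parental copy is silent. Of 39 tested, 9 were higher (15.2% of all genes) and 14 lower (14.9%) in KO control cells, 11 were kept in both conditions (12.6% of all genes), and 5 had a positive and 8 a negative interaction (7.31% and 10.3%). H19, a maternally expressed long RNA, had 6.83 and 7.06 CPM in KO RA and 510 and 481 in WT RA libraries, against 0.897 and 0.304 in KO control and 21.8 and 23.7 in WT control libraries. It rose with RA in both lines, its control gap was -5.24 and its RA gap -6.16, and the interaction was not called (-0.91 ± 0.35, adjusted p = 0.0795). Igf2, the growth factor gene beside it, was kept as lower in KO (control gap -0.61, RA gap -0.91). Meg3, a long RNA of another imprinted cluster, had 0.936 and 0.627 CPM in KO RA, 7.44 and 7.43 in WT RA, no read in either KO control and 1.88 and 2.37 CPM in WT control libraries. It was at least 11.4-fold lower in KO control cells, taking 3 counts per library as the floor, and its narrowing call (adjusted p = 0.00898) was lost without either KO control library (adjusted p = 0.0666 and 0.0747). Mest, a paternally expressed gene, widened: 607 and 595 CPM in KO RA, 155 and 148 in WT RA, 65.6 and 62.8 in KO control and 22.4 and 23.4 in WT control libraries (0.50 ± 0.08, adjusted p = 4.21e-05). Rhox5, an X-linked homeobox gene, narrowed: 59.0 and 58.5 CPM in KO RA, 72.9 and 72.8 in WT RA, 14.2 and 14.3 in KO control and 90.5 and 94.6 in WT control libraries (2.38 ± 0.09, adjusted p = 4.29e-17). RSEM divides reads between near-identical gene copies, and whether this touches the value of Rhox5 was not tested.

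Kept gaps were concentrated on chromosome 1. Of the 2247 kept genes, 1202 were lower and 1045 higher in KO. Chromosome 1 holds 6.08% of the genes tested and 395 of the 1202 kept genes lower in KO (32.9%), beside 5 kept genes higher in KO. Over its 855 genes with at least 1 CPM on average, the median gap was -0.47 with RA and -0.48 without it, and the median interaction was -0.01. The interaction was called at 17.2% of its genes, beside 17.7% of all. The Y chromosome, with 9 such genes, had larger medians, at 0.28 with RA, 1.07 without it and -0.47 for the interaction. On the X chromosome, with 542 such genes, the median gap was -0.05 with RA and -0.16 without it. Its median interaction was 0.09, and 39.5% of its interactions were below 0. The shift along chromosome 1 was thus there in control cells and was of about the same size with RA. The genes named above on chromosome 1 are Prdm14, Nr5a2, Tfcp2l1, Lefty1, Lefty2, Inhbb, Wnt6, Lamc1, Phlda3 and Sox17, and leaving all genes of chromosome 1 out of the fit gave 2976 calls.

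**Figure D5:**
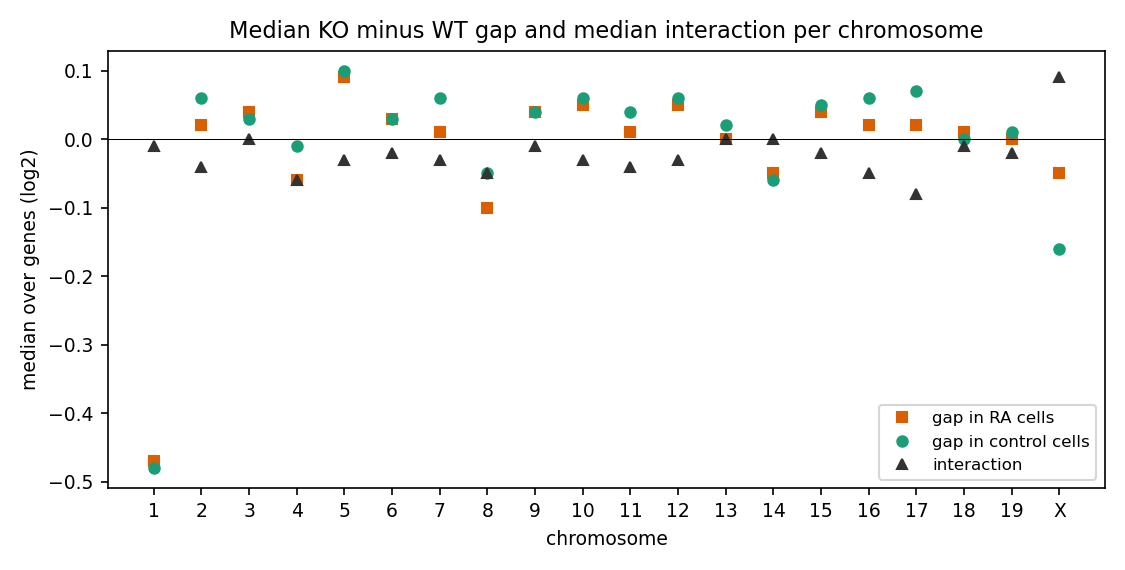
Median log2 gap between KO and WT in RA cells (squares) and control cells (circles) and median interaction (triangles) over the genes of each chromosome with at least 1 CPM on average. Among the chromosomes drawn, the autosomes and X, chromosome 1 stands apart in both gaps (-0.47 and -0.48) and not in the interaction (-0.01). X has gaps of -0.05 and -0.16 and an interaction of 0.09.

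Some of the largest interactions belonged to none of these lists. Mep1b, H2-M5 and Emb were arising genes and Npr3 a widening one. Mep1b, a meprin metalloprotease subunit, had 1.40 and 0.941 CPM in KO RA, 11.9 and 10.8 in WT RA, 8.65 and 7.78 in KO control and 8.18 and 7.60 in WT control libraries (interaction -3.31 ± 0.25, adjusted p = 7.60e-11). H2-M5, a class Ib histocompatibility gene, had 6.27 and 6.75 CPM in KO RA, 58.4 and 43.3 in WT RA, 99.1 and 92.0 in KO control and 114 and 111 in WT control libraries (-2.74 ± 0.18, adjusted p = 3.29e-07). Emb (embigin), a chaperone of lactate transporters, had 395 and 406 CPM in KO RA, 154 and 153 in WT RA, 97.6 and 93.2 in KO control and 92.6 and 97.9 in WT control libraries (1.38 ± 0.07, adjusted p = 1.94e-14). Emb, Fgfr3 and Lrpap1 were chosen, after values were seen, as arising genes whose control gap was bounded near 0. Npr3, the clearance receptor of natriuretic peptides, was lower in KO before RA (control gap -0.97, adjusted p = 0.00052) and more so with it (RA gap -4.38), with a response of -0.64 in KO and 2.77 in WT cells: 1.17 and 1.31 CPM in KO RA, 25.5 and 26.0 in WT RA, 1.86 and 2.01 in KO control and 3.59 and 3.98 in WT control libraries (-3.41 ± 0.29, adjusted p = 6.71e-10).

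The gene groups of early epiblast, neural cells and cell contacts showed interactions of both signs. Lin28a and Dnmt3l, an RNA-binding protein and a cofactor of DNA methylation, had responses of -0.02 and 0.05 in KO and of -1.48 and -1.07 in WT cells, so that KO, the lower line in control cells, was the higher one with RA. Otx2, an epiblast and anterior neural factor, had 0.140 and 0.157 CPM in KO RA, 0.837 and 1.20 in WT RA, 29.6 and 29.7 in KO control and 22.8 and 21.4 in WT control libraries (-3.13 ± 0.45, adjusted p = 6.55e-06). Its KO RA values are 3 counts each, no higher than the floor, so the size of its RA gap and interaction is uncertain. Cdh1 (E-cadherin) had 89.0 and 84.4 CPM in KO RA, 237 and 245 in WT RA, 235 and 232 in KO control and 275 and 270 in WT control libraries (-1.25 ± 0.07, adjusted p = 1.01e-13). KO cells with RA stood apart below the other 3 groups. Pax6, a neural and eye regulator, switched upward in KO from about 1 CPM or less in control cells (2.46 ± 0.50, adjusted p = 0.00075). Rrp12, a ribosome assembly factor, had 22.4 and 25.5 CPM in KO RA, 46.1 and 42.0 in WT RA, 136 and 137 in KO control and 140 and 133 in WT control libraries (-0.88 ± 0.10, adjusted p = 1.45e-07).

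Over the remaining lists, positive and negative interactions numbered 4 and 6 of 19 formative epiblast genes, 5 and 3 of 30 neural genes, 1 and 1 of 19 mesoderm genes, 4 and 5 of 26 epithelial junction genes and 6 and 0 of 21 contractile genes. They numbered 2 and 3 of 23 fibroblast genes, 0 and 8 of 32 ribosome biogenesis genes, 3 and 6 of 27 glycolysis and hypoxia genes, 2 and 5 of 22 genes of histone H2B ubiquitination, 1 and 0 of 15 NuRD genes and 1 and 3 of 21 interferon genes. They numbered 0 and 1 of 22 genes of the 2-cell embryo, 3 and 1 of 25 germline genes and 0 and 1 of 4 Y-linked genes. Beside these counts, 7.31% of all genes tested had a positive and 10.3% a negative interaction. Low control levels limit the precision for many list members. Of the 3157 called genes, 233 had a control group under 1 CPM and 27 had a group with no read.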

How the data were processed

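RNA-seq of 12 libraries was used, 8 of them (KO RA, WT RA, KO control, WT control, 2 each) in every comparison and 4 doxycycline libraries in the fit and in 1 description. The submitters' processing notes name STAR 2.5.3a, RSEM 1.3.0, DESeq2 1.18.1 and the mm10 build. Which annotation release and strand setting went into these steps is not given in the sources used here. The authors deposited expected counts per gene, per the file headers, with effective lengths, which are another deposited quantity and entered 1 alternative. Without a strand setting, genes that overlap on opposite strands cannot be told apart, and reads shared by near-identical copies were divided by RSEM.

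Expected counts were rounded to whole numbers. edgeR 4.0.16 (R 4.3.3) filtered genes by group with filterByExpr (minimum count 10), scaled by TMM and fitted all 12 libraries with 1 term per group (quasi-likelihood, robust, 6 residual degrees of freedom, coefficient of variation between replicates 4.38%). The 6 contrasts were the interaction, the gap between KO and WT in each of 3 conditions and the response of each line, each with Benjamini-Hochberg adjustment over 17884 genes and a threshold of 0.05. Values after ± are standard errors. CPM are rounded counts over TMM-scaled library sizes, and 3 counts in a library correspond to 0.132 to 0.204 CPM. Such floors cover counting error only, because PCR copies were not marked by molecular identifiers.

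Named genes were Phf6, Pou5f1, a fixed set of RA and lineage genes, members of 26 gene lists (668 genes), and for each class and sign the 6 genes with the largest interaction (kept genes, the 4 largest gaps of each sign) among called genes that reached 5 CPM in 1 group, no predicted symbol and no overlap of the lines where a gap was called. Members, lists and rules were chosen with earlier results of these data known. List counts are descriptions, and 26 genes stand in more than 1 list. Coordinates are those of GENCODE M21 (GRCm38) and start regions those of RefSeq (GRCm38.p6). The fit was tested on simulated interactions, with 50 genes at each size. Of these, 96% were recovered at 4-fold, 68% at 2-fold, 48% at 1.5-fold and 22% at 1.25-fold. There were 10 false calls among 16777 unchanged genes of 16977 tested. Each gene was simulated at 1 mean level in all groups, and changes were put into KO RA alone, at genes of at least 1 CPM. RA responses and changed genes with control levels near 0 were not simulated, so the rates may not carry over to them. The alternatives were 2 other scalings, DESeq2 1.42.0, no filter on low counts, the 8 libraries alone, a replicate block, effective lengths, no chromosome 1, each library left out, a threshold of 0.01, a control gap defined by size, and, added after values were seen, only genes with at least 1 CPM in both control groups.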

Additional observations from a re-analysis of the deposited data

Results flagged for a closer look

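The lines differed in their response to RA at 3157 genes by the test of the interaction itself, and the named genes with a called interaction are given here with their log2 values, positive where the KO response was the more positive.

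In the pluripotency network the interactions were -3.34 for Prdm14, -2.11 for Esrrb, -1.75 for Zfp42, -1.64 for Nr0b1, -1.85 for Fgf4, -2.16 for Nanog, -1.60 for Klf2, -1.45 for Tfcp2l1, -1.75 for Nr5a2, -2.19 for Klf4, -1.49 for Tet2 and -0.63 for Sox2. In the TGF-beta and BMP pathway they were -4.72 for Lefty2, -3.26 for Lefty1, -3.34 for Tdgf1, -1.79 for Nodal, -2.99 for Inhbb, -1.72 for Fst, 1.22 for Id2 and 0.71 for Id3. In FGF signalling they were -2.04 for Spry4, -1.20 for Spry2, -0.64 for Spry1, -1.39 for Etv4, -1.06 for Etv5, -1.0 for Dusp6, 1.56 for Fgfr3, 0.46 for Fgfr2, 1.61 for Fgf10, 0.86 for Egr1 and 1.18 for Ier3. Among Wnt genes they were -3.54 for Wnt8a, -2.38 for Wnt6, -1.99 for Wnt3, -1.04 for Axin2 and 2.33 for Wnt7b.

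Among endoderm and basement membrane genes the interactions were 2.92 for Dab2, 1.77 for Lrp2, 1.23 for Lrpap1, 1.68 for Cubn, 1.59 for Amn, 1.05 for Cst3, 1.18 for Rbp4, 1.53 for Gata4, 1.88 for Sparc, 1.27 for Lamb1, 1.20 for Lamc1, 1.10 for Serpinh1, 0.58 for Col4a2 and -1.12 for Col4a5. Among retinoid and Hox genes they were -3.07 for Cdx1, 4.04 for Meis2, 0.84 for Crabp1, -0.98 for Tgm2, 5.26 for Hoxa5, 2.13 for Hoxc4 and 0.79 for Hoxb9. The values of Hoxa5 and Meg3 (given with the imprinted genes) depend on the prior count of the fit, because the KO control libraries had no read, and do not measure a size. Among genes of the p53 pathway they were -1.24 for Plk2, -1.0 for Trp53inp1, -0.72 for Ccng1, -0.46 for Mdm2, -0.44 for Cdkn1a, -0.61 for Bbc3, -1.17 for Phlda3, -0.90 for Perp, -0.63 for Aen, -0.75 for Sesn1, 0.38 for Plk3, 0.39 for Gadd45a and 1.88 for Cdkn2a. The call of Mdm2 was lost with effective lengths.

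Among trophectoderm, contractile, imprinted and X-linked genes the interactions were 2.60 for Tfap2a, -0.70 for Tfap2c, 0.76 for Krt8, 0.97 for Krt18, -1.47 for Krt7, 1.05 for Cyr61, 0.96 for Ctgf, 5.04 for Meg3, 0.50 for Mest and 2.38 for Rhox5. For the others they were -3.31 for Mep1b, -2.74 for H2-M5, 1.38 for Emb, -3.41 for Npr3, 1.98 for Pknox2, -3.13 for Otx2, 1.46 for Lin28a, 1.12 for Dnmt3l, 2.46 for Pax6, -1.25 for Cdh1 and -0.88 for Rrp12. The size for Otx2 is uncertain, because it rests on 3 counts in each KO RA library.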

How the results depend on the processing

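Replicate numbers do not pair the libraries (correlations of deviations from -0.0256 to 0.0583), and a replicate block gave 3008 interaction calls, 1219 arising, 820 closing, 237 widening, 204 narrowing, 447 switching and 2223 kept genes. DESeq2 called 1936 interactions, with 804 arising, 537 closing, 156 widening, 111 narrowing and 258 switching genes. Its adjusted p was not given for 3468 genes. Effective lengths gave 1761 interactions, 750 arising, 514 closing, 112 widening, 93 narrowing, 233 switching and 1474 kept genes. A threshold of 0.01 gave 1890 interactions, 821 arising, 518 closing, 132 widening, 98 narrowing and 241 switching genes. With a control gap defined as 0.5 or more in size, 453 genes closed, 78 widened, 231 switched and 1492 were kept. For these settings the cause was not tested, apart from the stricter threshold, which by construction calls fewer genes.

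Leaving out 1 library, with the lone library of that group assumed to vary like the others, gave 2231 to 2511 interactions, 828 to 1092 arising, 529 to 756 closing, 143 to 214 widening, 117 to 165 narrowing, 304 to 363 switching and 1823 to 2002 kept genes. The counts moved by over 1.5 times for arising genes without KO RA replicate 2 (828), for closing and switching genes without WT control replicate 2 (529 and 304) or KO control replicate 1 (551 and 309), for widening genes without any 1 of the 4 control libraries (143 to 150) and for narrowing genes without any 1 of the 4 RA libraries (117 to 135). The 8 libraries alone gave 4033 interaction calls, DESeq2 size factors 3136 with 48.4% of them positive, and genes at 1 CPM or more in both control groups 2924. The scalings moved the median interaction by at most 0.029. Effective lengths changed the sign of 30 called genes, and no other setting changed a sign among shared calls. Among named genes, 174 values over all settings lost their call, 10 gained one and 2930 kept their side of the threshold. None changed sign where the gene was called in the main fit or in the alternative. Signs of genes called in neither were not compared. Depth limits the interaction where control cells are near 0, as for Cubn, Gata6 and the Hox genes.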
